A study of Mus musculus with 4 samples.

Results

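The antioxidant and glutathione genes examined here are 37 of the 17780 genes of a mouse lung RNA-Seq table, taken by symbol from a list of NRF2 targets and of genes for glutathione, peroxidase and superoxide enzymes. All 37 were found, and 36 of them reached 1 FPKM (fragment counts corrected for transcript length and library depth) in at least 1 library. Slc7a11, which encodes the cystine carrier xCT, was the exception at 0.30 to 0.37 FPKM.

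Amiodarone is an antiarrhythmic drug known for lung toxicity, and dabigatran is an oral inhibitor of the clotting enzyme thrombin. The lungs came from male mice, C57BL/6 by the labels and C57BL/6J by the study's methods, given vehicle, amiodarone, dabigatran or both drugs, and poly(A) RNA was sequenced. The labels give 28 days of treatment, and the study's methods give a slightly earlier day for lung collection. Each of the 4 treatments is represented by 1 library, and whether a library holds 1 mouse or a pool was not given in the sources used here. The design asks what amiodarone does to lung RNA with and without dabigatran.

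With 1 library per treatment no difference could be checked against replicates, and no p-value is given. A ratio of FPKM is followed in parentheses by its exact Clopper-Pearson 95% interval from the estimated reads, which covers counting error only and compares libraries, not treatments. A difference is called beyond counting error where this interval excludes 1, and 1.5-fold refers to the log2(FPKM + 1) scale, which understates differences of genes with low values. RNA came from unsorted tissue of the left lung, so fewer cells of a type and less RNA per cell cannot be told apart.

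The libraries held 17498486 to 18903401 estimated reads. The 36 genes had a median of 2886 reads per library, against 541 over the 13536 genes at 1 FPKM or more, so their intervals are narrow. At the same ratio a member is therefore called beyond counting error more readily than a typical gene. This limit applies to every such share below. The alveolar type 2 markers of lung were present, with all 8 above 1 FPKM in every library and sums of 25390 to 27400 FPKM. Markers of cardiac muscle (sums of 754 to 1555 FPKM) and of red blood cells (8525 to 21410 FPKM) varied more between the libraries. Macrophage markers were higher in 11 of 12 genes both for amiodarone against vehicle and for amiodarone + dabigatran against dabigatran, with sums of 3633, 5865, 3952 and 5808 FPKM for vehicle, amiodarone, dabigatran and amiodarone + dabigatran. Neutrophil markers summed to 116, 616, 102 and 440.1 FPKM in the same order, and Elane, Mpo and Camp were under 1 FPKM throughout. Of the 11 neutrophil markers, 9 were higher and 2 lower in the first comparison, and 7 were higher and 3 lower in the second. Club and secretory airway markers were lower in 8 of 8 genes in both comparisons, with sums of 131900, 78850, 106200 and 103000 FPKM. Cardiac muscle, smooth muscle and adipocyte markers were also lower in both, in 6 of 6 genes each, with Lep under 1 FPKM throughout. Ciliated airway markers were lower in 7 of 7 genes in the first comparison and in 6 of 7 in the second. Fibroblast markers were lower in 8 of 8 and in 6 of 8. Red blood cell markers were higher in 7 of 7 genes in the first comparison and lower in 6 of 7 in the second. Endothelial markers were higher in 4 of 8 genes and lower in 4 in the first, and lower in 8 of 8 in the second. Lymphocyte markers were lower in 6 of 8 and in 7 of 8, with sums of 147.3, 71.6, 139.9 and 105.3 FPKM. The part of these shifts in the results below was not tested.

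NRF2, the protein of Nfe2l2, is the transcription factor that switches on detoxifying and antioxidant genes. KEAP1 binds it and marks it for degradation until oxidants or reactive chemicals modify KEAP1, whereupon NRF2 enters the nucleus, pairs with small MAF proteins and binds antioxidant response elements. BACH1 competes for the same elements as a repressor. Many of the genes keep glutathione, the main thiol of the cell, in its reduced form, and others remove superoxide and peroxides, conjugate foreign chemicals or store iron. In the lung this defence is prominent in club cells, alveolar type 2 cells and macrophages.

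The members did not move as a block in the amiodarone library. Of the 36 genes, 15 were higher than with vehicle and 21 lower, a share higher of 41.7% against 41.0% of all genes. None was at least 1.5-fold higher, where 4.34% of the 13402 genes compared were. Nqo1, Gpx2 and Sod3 were at least 1.5-fold lower, 8.33% of the members against 3.93% of all genes. Beyond counting error, 13 were higher (36.1%, against 19.6% of all genes) and 18 lower (50%, against 30.1%), with the read depth given above beside both shares. The median difference was -0.07 on the log2(FPKM + 1) scale, against -0.05 over all genes, while the median size of the difference without its sign was 0.24 against 0.16.

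The comparison of amiodarone + dabigatran with dabigatran shares no library with that of amiodarone and vehicle. None of the 36 genes was at least 1.5-fold higher in it (3.25% of all genes), and Nqo1 alone was at least 1.5-fold lower (2.04%). Beyond counting error 20 were higher (55.6%, against 19.5%) and 10 lower (27.8%, against 23.5%). By any amount 22 were higher, 61.1% against 47.1% of all genes, and Nfe2l2 was equal to the second decimal. The median was 0.11, against -0.01 over all genes. In both comparisons 25 of the 36 genes, 69.4%, had the same direction, close to the 64.4% of all genes. In 6 genes (Gstm1, Sod1, Pgd, Tkt, Gstp1 and Srxn1, 16.7% against 4.09% of all genes) the directions were opposite and both beyond counting error. Of these, Gstm1 and Gstp1 had estimated reads that were not whole numbers, and their values are less certain. Across the 36 genes the log2 differences of the 2 comparisons had a Pearson r of 0.86, and across all 13245 genes compared it was 0.65, as a description over genes that are not independent and that share their libraries.

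In 12 of the 36 genes both libraries with amiodarone lay above both without it, or 33.3% against 21.9% of all genes. They were Bach1, Hmox1, Gsr, G6pdx, Taldo1, Gpx1, Gpx3, Gpx4, Prdx6, Txn1, Ftl1 and Fth1. In 11 genes, 30.6% against 31.4% of all genes, both lay below: Nqo1, Ephx1, Gclm, Gss, Me1, Gsta3, Gsta4, Gstm2, Gpx2, Sod3 and Cat. In the remaining 13 genes the pairs overlapped.

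**Figure D1:**
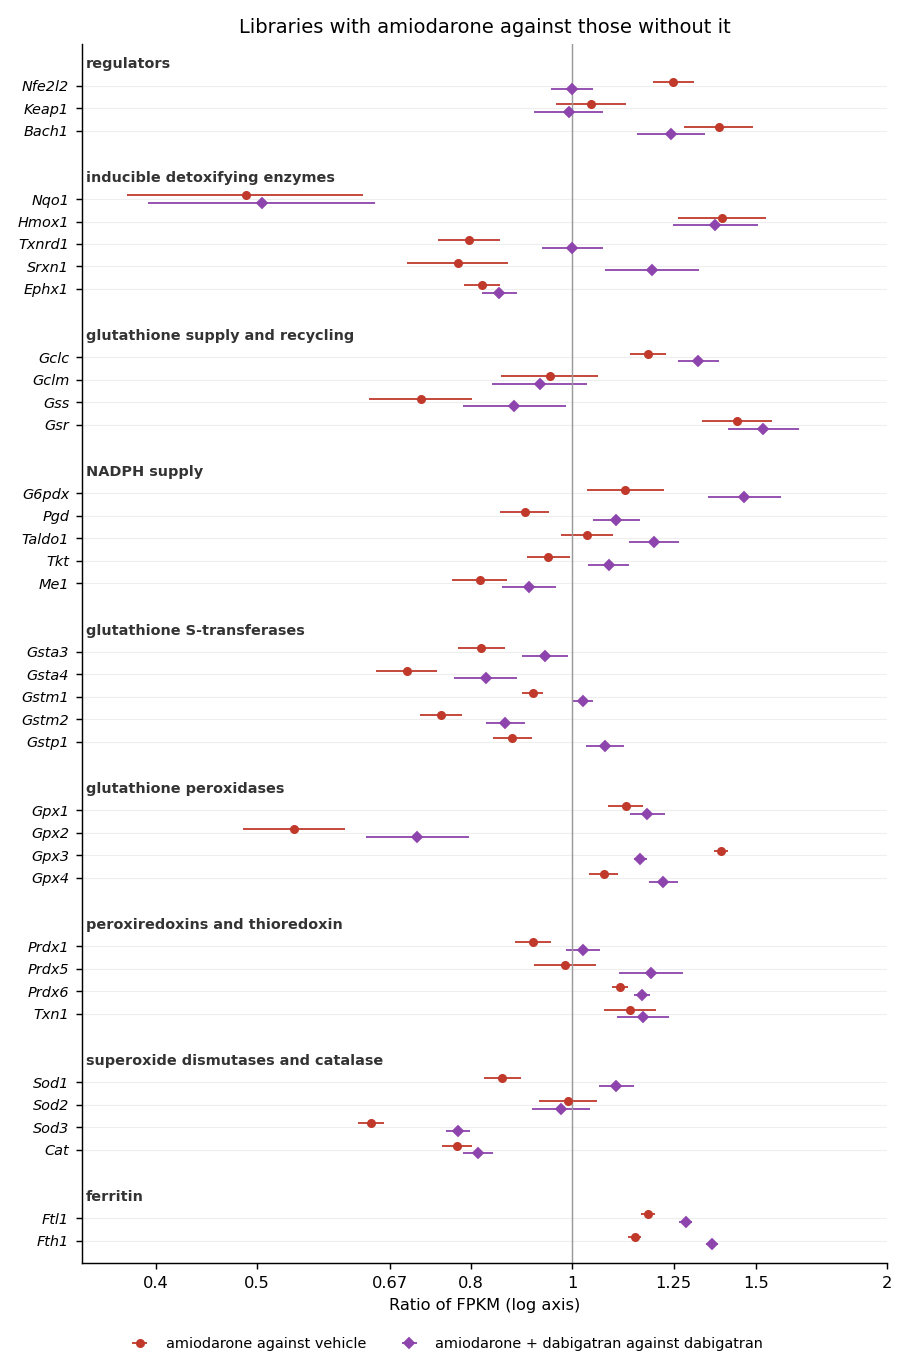
Ratio of FPKM (log axis) for amiodarone against vehicle (circles) and for amiodarone + dabigatran against dabigatran (diamonds) in the 36 genes that reached 1 FPKM, by role; bars are exact 95% intervals for counting error. Nqo1, Gpx2 and Sod3 lie farthest to the left in the first comparison, and Gsr, G6pdx and Hmox1 lie farthest to the right in the second.

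The regulators were measured in all 4 libraries at levels well above the filter. Nfe2l2, on chromosome 2 from 75675513 to 75704663 of GRCm38.p6, had 77.4, 96.7, 82.5 and 82.5 FPKM with vehicle, amiodarone, dabigatran and amiodarone + dabigatran, the order used for every set of 4 values that follows. The amiodarone library stood above the other 3, with a ratio to vehicle of 1.249 (1.19 to 1.31), while amiodarone + dabigatran equalled dabigatran at 1 (0.955 to 1.05). Keap1, the NRF2 inhibitor, had 22.1, 23.0, 23.2 and 23.0 FPKM, a spread of 4.89% between the lowest and the highest library. No pair of Keap1 values went beyond counting error in the 4 comparisons. Bach1, the repressor, had 11.2, 15.4, 11.9 and 14.8 FPKM. Both libraries with amiodarone lay above both without it, at ratios of 1.38 (1.28 to 1.49) to vehicle and 1.24 (1.15 to 1.34) for amiodarone + dabigatran against dabigatran.

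Promoter windows of RefSeq for GRCm38.p6, 250 bases before to 50 after each start, were given for 31 of the 37 genes, as 40 windows. Gclc, Gsr, Hmox1, Prdx6, Sod3 and Gsta4 had none. Both strands were searched for TGACNNNGC, the core of the antioxidant response element, and for TGACTCAGC, a stricter form contained in it. The first was found in 10 of the 31 genes (32.3%, against 14.0% of 27025 genes with a window): Nfe2l2, Txnrd1, Srxn1, Gclm, G6pdx, Pgd, Me1, Gsta3, Prdx1 and Sod1. The second was found in Prdx1 and Me1 (6.45%, against 0.503% of genes). TGAGTCAGC, searched after the sequences had been seen, was found in Srxn1 and Gstp1 (against 0.481% of genes). A match describes letters only, and the lack of one says only that these letters are not in the window.

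The promoters of 6 genes are shown. Nqo1 and Gpx2 had the lowest ratios of amiodarone to vehicle and no match. Me1 and Prdx1 hold TGACTCAGC. Another window of Me1, around chr9:86687268-86687427, has no match and is not shown. Srxn1 holds TGAGTCAGC, and its TGACNNNGC match lies after the printed stretch. Gclm holds a TGACNNNGC match, and its RNA differed little between the libraries. Each line gives 160 bases of the strand of the gene, 5′ to 3′, ending 10 bases after the start, and capitals mark the matches, which read as the reverse complement where they lie on the opposite strand (Gclm and Prdx1).
Nqo1, GRCm38.p6 chr8:107403196-107403355, minus strand: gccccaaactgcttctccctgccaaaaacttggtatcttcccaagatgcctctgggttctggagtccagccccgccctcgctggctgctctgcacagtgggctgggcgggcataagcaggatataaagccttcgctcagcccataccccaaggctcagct
Gpx2, GRCm38.p6 chr12:76795545-76795704, minus strand: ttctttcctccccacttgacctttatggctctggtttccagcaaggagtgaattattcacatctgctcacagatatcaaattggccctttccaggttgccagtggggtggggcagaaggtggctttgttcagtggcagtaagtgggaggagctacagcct
Me1, GRCm38.p6 chr9:86695905-86696064, minus strand: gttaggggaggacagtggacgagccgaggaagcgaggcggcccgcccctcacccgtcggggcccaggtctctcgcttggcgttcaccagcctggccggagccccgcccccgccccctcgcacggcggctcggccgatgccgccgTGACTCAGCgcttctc
Srxn1, GRCm38.p6 chr2:152105374-152105533, plus strand: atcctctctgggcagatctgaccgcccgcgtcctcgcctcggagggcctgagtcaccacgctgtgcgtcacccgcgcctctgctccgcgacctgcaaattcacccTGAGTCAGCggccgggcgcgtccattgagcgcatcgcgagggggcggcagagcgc
Gclm, GRCm38.p6 chr3:122245407-122245566, plus strand: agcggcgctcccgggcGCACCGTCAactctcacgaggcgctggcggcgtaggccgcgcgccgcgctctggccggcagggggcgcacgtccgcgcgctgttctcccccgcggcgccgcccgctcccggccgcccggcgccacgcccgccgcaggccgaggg
Prdx1, GRCm38.p6 chr4:116685449-116685608, plus strand: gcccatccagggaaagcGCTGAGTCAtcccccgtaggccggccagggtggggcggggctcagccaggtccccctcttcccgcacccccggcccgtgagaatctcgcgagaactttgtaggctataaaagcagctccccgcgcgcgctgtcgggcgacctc
Genes with a match did not share a direction. Of the 10 with TGACNNNGC, Nfe2l2 and G6pdx were higher with amiodarone than with vehicle beyond counting error. Gclm lay within it, and the other 7 were lower. Of all 36 members 36.1% were higher and 50% lower, and of all genes 19.6% and 30.1%, so the split is not read as a trait of genes with a match.

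The inducible detoxifying enzymes went both ways with amiodarone. Nqo1, on chromosome 8 from 107388225 to 107403205, encodes a quinone reductase and is a standard readout of NRF2 activity. It had 6.72, 3.28, 7.04 and 3.56 FPKM, from 92 to 187 reads. Both libraries with amiodarone lay far below both others, at ratios of 0.488 (0.375 to 0.632) and 0.506 (0.393 to 0.648). Dabigatran alone gave 1.05 (0.848 to 1.29), within counting error. Hmox1, on chromosome 8 from 75093618 to 75100593, encodes heme oxygenase and is both an NRF2 and a BACH1 target. Its level of 26.7, 37.1, 27.5 and 37.7 FPKM was higher in both libraries with amiodarone, at ratios of 1.39 (1.26 to 1.53) and 1.37 (1.247 to 1.51), opposite to Nqo1.

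Txnrd1, the cytosolic thioredoxin reductase, had 31.3, 24.9, 28.4 and 28.4 FPKM. It was lower with amiodarone than with vehicle, at 0.796 (0.744 to 0.852), but amiodarone + dabigatran equalled dabigatran at 1 (0.936 to 1.07). Srxn1, the enzyme that repairs overoxidized peroxiredoxins, had 14.8, 11.5, 13.5 and 16.1 FPKM. The amiodarone library was the lowest and the amiodarone + dabigatran library the highest, so the ratio was 0.777 (0.696 to 0.868) without dabigatran and 1.19 (1.07 to 1.32) with it. Ephx1, an epoxide hydrolase, had 183, 150.2, 181 and 155 FPKM, and both libraries with amiodarone were lower, at 0.820 (0.788 to 0.852) and 0.852 (0.820 to 0.886).

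**Figure D2:**
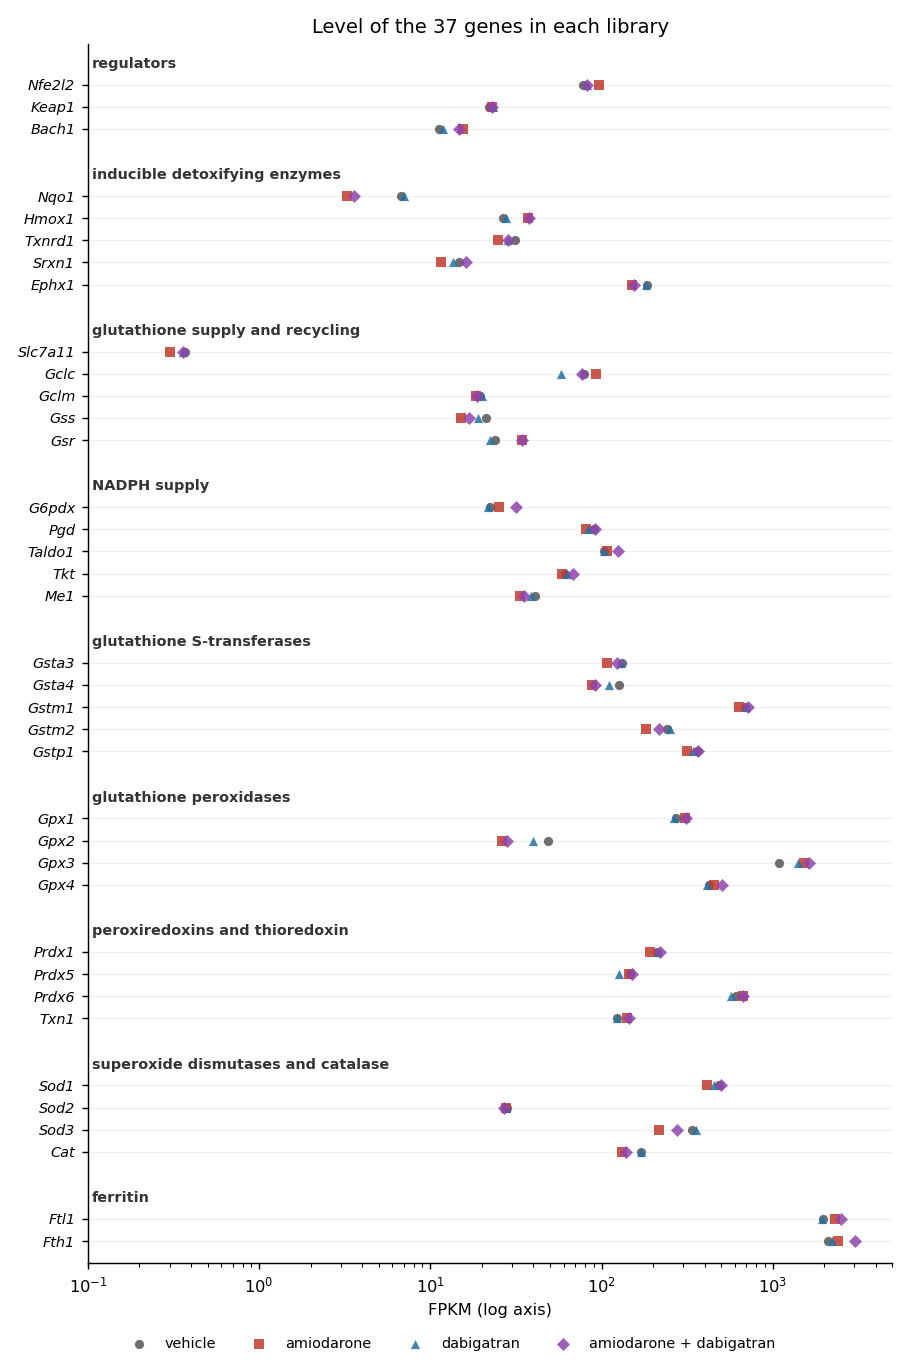
FPKM (log axis) of the 37 genes in the vehicle, amiodarone, dabigatran and amiodarone + dabigatran libraries, by role, with 1 point per library. Levels run from 0.30 FPKM for Slc7a11 to 3015 FPKM for Fth1, and the 4 points of most genes lie close together on this scale.

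The genes for making glutathione did not move in step with each other. Gclc, on chromosome 9 from 77754535 to 77794489, encodes the catalytic subunit of glutamate-cysteine ligase, the rate-limiting enzyme of glutathione synthesis. It had 78.7, 92.9, 58.4 and 77.0 FPKM. The dabigatran library was the lowest and the amiodarone library the highest. Their ratios to vehicle were 0.742 (0.709 to 0.776) and 1.18 (1.14 to 1.23). For amiodarone + dabigatran against dabigatran the ratio was 1.32 (1.26 to 1.38). Gclm, the modifier subunit of the same enzyme, had 19.4, 18.5, 20.1 and 18.7 FPKM, and every ratio lay within counting error. Gss, which adds glycine in the last step, had 21.1, 15.1, 19.03 and 16.8 FPKM. Amiodarone gave 0.717 (0.639 to 0.803) against vehicle and 0.881 (0.787 to 0.986) in the presence of dabigatran.

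Gsr, on chromosome 8 from 33653238 to 33698162, encodes glutathione reductase, which returns oxidized glutathione to its reduced form with NADPH. It had 23.8, 34.1, 22.4 and 34.2 FPKM, and both libraries with amiodarone stood clear of both without it. The ratios of 1.44 (1.33 to 1.55) and 1.52 (1.41 to 1.65) were the highest of any of the 36 genes in either comparison. On the log2(FPKM + 1) scale the second was 0.58, just under 1.5-fold. It passes 1.5-fold when the pseudocount is 0.1, when the libraries are rescaled, or when reads are scaled to the library totals. Slc7a11, which brings in cystine for this pathway, had 0.37, 0.30, 0.36 and 0.36 FPKM from 49 to 60.5 reads. Its ratios lay within counting error with wide intervals, as in 0.811 (0.543 to 1.21) for amiodarone against vehicle, so only a large difference could be detected. Its estimated reads were not whole numbers in 3 of the 4 libraries.

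The genes for NADPH supply together had their highest share of reads, 0.0724% (0.0712 to 0.0736), in the amiodarone + dabigatran library, against 0.0668% (0.0656 to 0.0680) with vehicle. G6pdx, on chromosome X from 74409483 to 74428880, encodes the first enzyme of the pentose phosphate pathway and had 22.5, 25.2, 21.8 and 31.8 FPKM. Its ratio was 1.12 (1.03 to 1.22) for amiodarone against vehicle and 1.46 (1.35 to 1.58) for amiodarone + dabigatran against dabigatran. Pgd, the next NADPH-making enzyme of that pathway, had 89.9, 81.0, 82.8 and 91.3 FPKM. Taldo1 and Tkt encode transaldolase and transketolase, which recycle its sugars. Taldo1 had 103, 107, 104 and 124 FPKM. Tkt had 61.5, 58.4, 63.2 and 68.5 FPKM. In all 4 genes the amiodarone + dabigatran library was the highest, and the ratio to amiodarone was beyond counting error, from 1.13 for Pgd to 1.26 for G6pdx. Me1, cytosolic malic enzyme, had 40.8, 33.3, 38.5 and 35.05 FPKM and was lower in both libraries with amiodarone, at 0.816 (0.768 to 0.867) and 0.909 (0.856 to 0.966).

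All 5 glutathione S-transferases, which couple glutathione to reactive chemicals, were lower with amiodarone than with vehicle beyond counting error, against 30.1% of all genes. Their reads exceeded the median of all genes, so that a ratio as near 1 as the 0.917 of Gstm1 was called. Gsta3 had 132, 108, 129.99 and 122 FPKM, and Gsta4, an isoform that clears lipid peroxidation products, had 126, 87.6, 111 and 91.4 FPKM. Gstm2 had 242, 181, 250.5 and 216 FPKM. For these 3 genes both libraries with amiodarone lay below both others, and Gsta4 had the lowest ratios of the group, 0.695 (0.649 to 0.743) and 0.827 (0.772 to 0.885). Gstm1 had 689, 632, 697 and 714 FPKM and Gstp1, a pi-class enzyme, had 359.9, 316, 341 and 367 FPKM. In these 2 genes the amiodarone + dabigatran library was the highest of the 4, so the direction turned in the presence of dabigatran. Reads of Gstm1 and Gstp1 were not whole numbers, a sign that reads were divided among near-identical copies by estimation, and their values are less certain.

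The glutathione peroxidases, which reduce peroxides with glutathione, were split by gene. Gpx1, the widespread cytosolic form, had 273, 307, 264 and 312 FPKM. Gpx4, which protects membrane lipids from peroxidation, had 424, 454, 411 and 503 FPKM. Both were higher in the libraries with amiodarone, at 1.12 (1.08 to 1.17) and 1.18 (1.14 to 1.23) for Gpx1 and at 1.07 (1.04 to 1.11) and 1.22 (1.18 to 1.26) for Gpx4. Gpx2, on chromosome 12 from 76792335 to 76795554, is an epithelial form and an NRF2 target. It had 48.5, 26.3, 39.6 and 28.2 FPKM, and both libraries with amiodarone were lower, at 0.542 (0.485 to 0.606) and 0.711 (0.635 to 0.797). Dabigatran alone was also below vehicle, at 0.817 (0.738 to 0.903).

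Gpx3, the secreted form found in plasma and lining fluid, on chromosome 11 from 54902854 to 54910387, had 1092, 1516, 1407 and 1634 FPKM. The vehicle library stood below the other 3, with ratios of 1.39 (1.37 to 1.41) for amiodarone and 1.29 (1.27 to 1.31) for dabigatran. Gpx3 was the member with the highest ratio of dabigatran to vehicle. It carried most of the reads of the glutathione peroxidase group, whose share of all reads was 0.230% (0.228 to 0.232) with vehicle, 0.296% (0.293 to 0.298) with amiodarone, 0.273% (0.270 to 0.275) with dabigatran and 0.318% (0.316 to 0.321) with amiodarone + dabigatran.

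Most peroxiredoxins remove peroxides with electrons from thioredoxin. Prdx1 had 209, 192, 213 and 218 FPKM, lower with amiodarone than with vehicle at 0.918 (0.882 to 0.955) and within counting error in the presence of dabigatran. Prdx5, found in several compartments of the cell, had 147, 145, 126 and 149.8 FPKM, with the dabigatran library the lowest. Prdx6, a peroxidase of surfactant-making cells that also turns over phospholipid, had 607, 675, 573 and 668 FPKM. It was higher in both libraries with amiodarone, at 1.11 (1.09 to 1.13) and 1.17 (1.15 to 1.19). Txn1, thioredoxin, had 124, 141, 124 and 145 FPKM and was likewise higher, at 1.14 (1.07 to 1.203) and 1.17 (1.104 to 1.24).

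The superoxide dismutases, which turn superoxide into hydrogen peroxide, differed by location. Sod3, on chromosome 5 from 52363804 to 52369738, encodes the extracellular form that binds to matrix and vessel walls, and had 336, 216, 355 and 276 FPKM. Both libraries with amiodarone were lower, at 0.642 (0.624 to 0.661) and 0.778 (0.758 to 0.799), and amiodarone + dabigatran stood above amiodarone at 1.28 (1.24 to 1.32). Sod1, the cytosolic form, had 483, 415, 455 and 501 FPKM, lowest with amiodarone and highest with amiodarone + dabigatran. Sod2, the mitochondrial form, had 28.0, 27.8, 27.5 and 26.9 FPKM, a spread of 4.28% that stayed within counting error in every comparison. Its estimated reads were not whole numbers in 3 of the 4 libraries, as for Gstm1 and Gstp1, and its values are less certain. Cat, the catalase that breaks down hydrogen peroxide in peroxisomes, had 170.4, 132, 169.8 and 138 FPKM. It was lower in both libraries with amiodarone, at 0.776 (0.750 to 0.803) and 0.813 (0.786 to 0.840).

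Ferritin stores iron and so keeps it from feeding radical chemistry. Ftl1, the light chain, on chromosome 7 from 45457944 to 45459886, had 1959.6, 2315, 1947 and 2501 FPKM. Fth1, the heavy chain, on chromosome 19 from 9980600 to 9985111, had 2088, 2395, 2219 and 3015 FPKM. Both were higher in both libraries with amiodarone, with ratios of 1.18 (1.16 to 1.199) and 1.28 (1.27 to 1.30) for Ftl1 and of 1.15 (1.13 to 1.16) and 1.36 (1.34 to 1.38) for Fth1. The amiodarone + dabigatran library was the highest for both, and Fth1 stood at 1.26 (1.24 to 1.28) against amiodarone. The estimated reads of Ftl1 were not whole numbers, so part of them may belong to copies of the gene. Together the chains took 0.364% (0.361 to 0.367) of all reads with vehicle, 0.424% (0.421 to 0.427) with amiodarone, 0.374% (0.371 to 0.377) with dabigatran and 0.496% (0.493 to 0.499) with amiodarone + dabigatran.

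**Figure D3:**
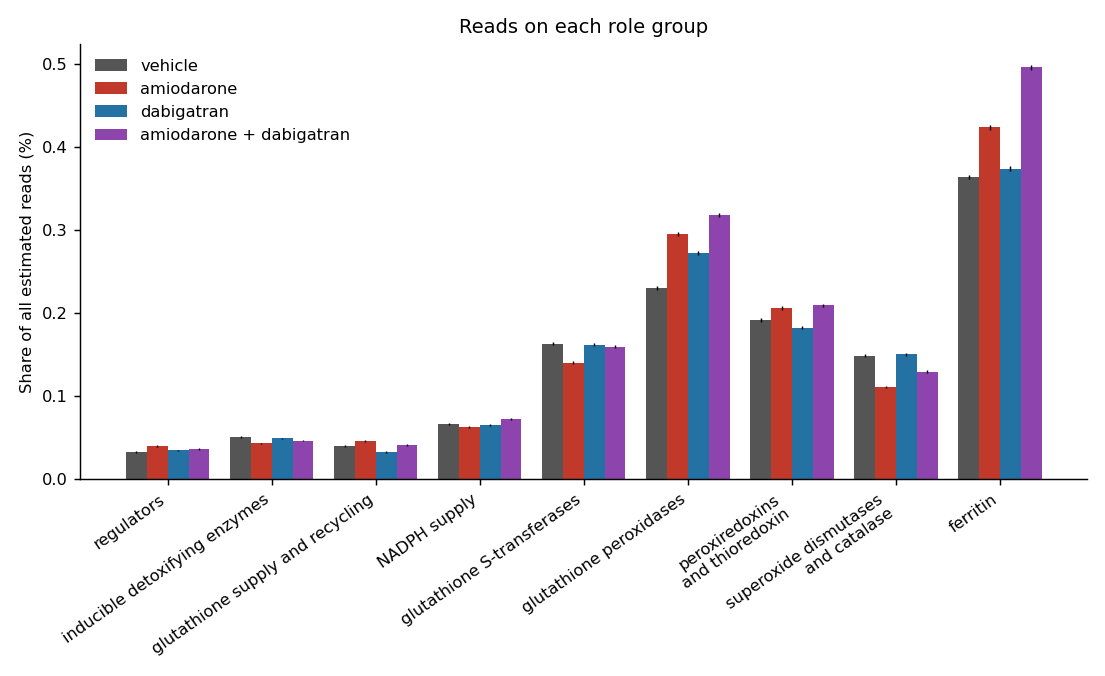
Share of all estimated reads (%) on each role group in the 4 libraries; bars are shares and error bars exact 95% intervals for counting error. Ferritin took 0.364% of the reads with vehicle and 0.496% with amiodarone + dabigatran, and superoxide dismutases with catalase were lowest with amiodarone, at 0.111%.

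All 37 genes together took 1.29% (1.28 to 1.29) of the reads with vehicle, 1.37% (1.36 to 1.37) with amiodarone, 1.32% (1.32 to 1.33) with dabigatran and 1.51% (1.503 to 1.51) with amiodarone + dabigatran. Ferritin and glutathione peroxidases held most of the difference between vehicle and amiodarone + dabigatran. As shares of all reads, the glutathione S-transferases took 0.163%, 0.140%, 0.162% and 0.160% in the same order, and superoxide dismutases with catalase 0.149%, 0.111%, 0.150% and 0.129%.

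Dabigatran alone differed little from vehicle. No member was at least 1.5-fold higher (0.449% of all 13373 genes compared) or lower (0.508%). Beyond counting error, Nfe2l2, Gpx3, Sod3 and Fth1 were higher (4 genes, 11.1%, against 15.2%), and 9 were lower (25.0%, against 13.4%). The 9 were Txnrd1, Gclc, Pgd, Gsta4, Gstp1, Gpx2, Prdx5, Prdx6 and Sod1, with ratios from 0.742 for Gclc to 0.948 for Gstp1. By any amount 15 genes were higher, 41.7% against 50.1% of all genes. The median was -0.02 on the log2(FPKM + 1) scale against 0.00 over all genes.

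The addition of dabigatran to amiodarone was read from amiodarone + dabigatran against amiodarone, a comparison that shares the amiodarone library with that of amiodarone and vehicle, so that an error in that library enters both with opposite sign. No member was at least 1.5-fold higher (1.06% of all 13261 genes compared) or lower (1.22%). By any amount 30 of 36 were higher, 83.3% against 57.7% of all genes. After rescaling each library by its median ratio to the geometric mean of all libraries, 26 of 36 were higher, 72.2% against 49.2%. Beyond counting error 18 were higher (50%, against 21.2%), and Nfe2l2 and Gclc were lower (2 genes, 5.56%, against 15.0%). After rescaling 17 were higher and 4 lower beyond counting error. The median was 0.10 against 0.03 over all genes, and 0.07 after rescaling.

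Of the 18 genes that were higher, Srxn1 had the highest ratio, 1.40 (1.26 to 1.56), and then Sod3, Fth1 and G6pdx. They included all of the glutathione S-transferases but Gsta4, all of the pentose phosphate enzymes and both ferritin chains. Nqo1, Hmox1, Gsr, Gpx1, Gpx2, Gclm, Keap1 and Txn1 were among those within counting error. The ratio for Nqo1 was 1.08 (0.810 to 1.46) and that for Hmox1 1.01 (0.931 to 1.105). Set beside the level with vehicle, amiodarone + dabigatran was above it in the glutathione S-transferases Gstm1 and Gstp1 and below it in Gsta3, Gsta4 and Gstm2.

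**Figure D4:**
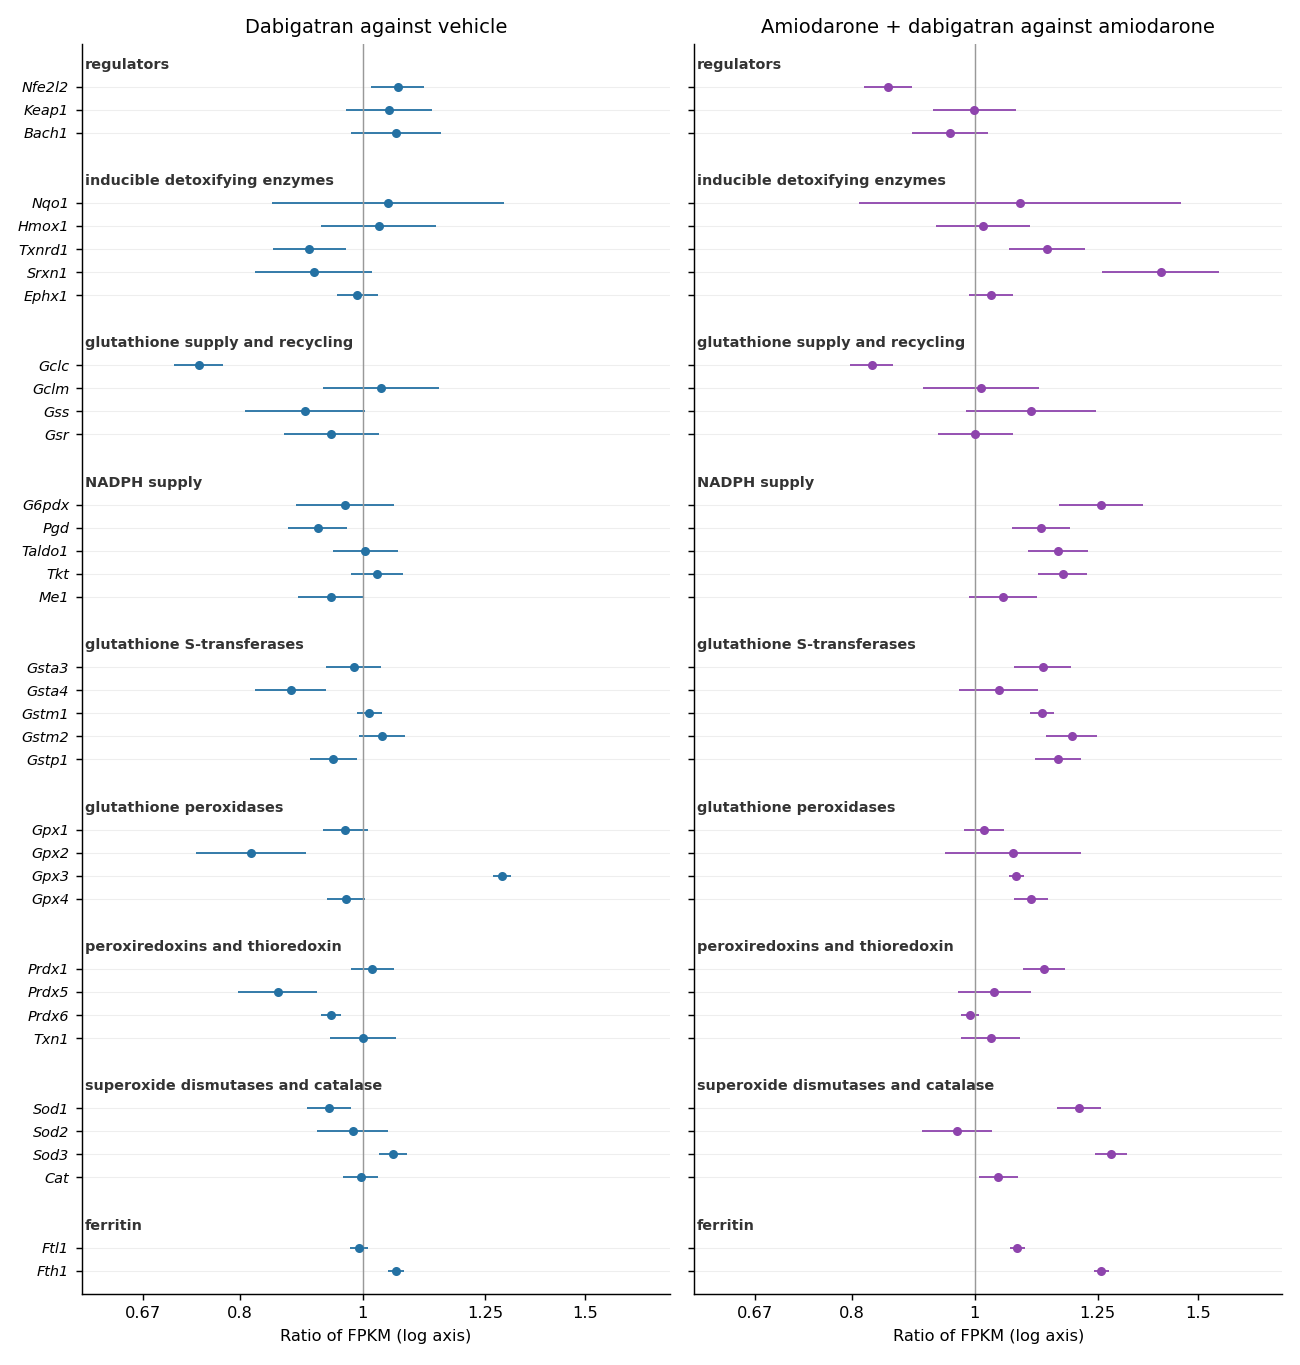
Ratio of FPKM (log axis) for dabigatran against vehicle (left) and for amiodarone + dabigatran against amiodarone (right) in the 36 genes; bars are exact 95% intervals for counting error. On the left Gclc and Gpx3 lie farthest from 1 in opposite directions, and on the right 30 of 36 points lie above 1.

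By position among the 4 libraries, amiodarone was the lowest in 19 of the 36 genes, 52.8% against 37.4% of all genes. The amiodarone + dabigatran library was the highest in 18, 50% against 22.9% of all genes.

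Other genes of the same pathways were counted from lists. Of 18 further glutathione transferases with at least 1 FPKM, 10 were lower with amiodarone than with vehicle beyond counting error (55.6%, against 30.1% of all genes) and none was higher (against 19.6%). Gsta2 and Gstm6 were at least 1.5-fold lower (11.1%, against 3.93%). Gsta2, an alpha-class isoform, had 9.20, 4.67, 6.90 and 5.43 FPKM. The median of these 18 genes was -0.27 on the log2(FPKM + 1) scale, and for amiodarone + dabigatran against dabigatran it was -0.03 over 17 genes.

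Among 26 other genes associated with NRF2, 16 were lower with amiodarone than with vehicle beyond counting error (61.5%, against 30.1% of all genes), and 6 were higher (23.1%, close to the 19.6% of all genes). At least 1.5-fold lower were 9 (34.6%, against 3.93%), and none was as much higher (against 4.34%). Ces1g, a carboxylesterase, had 4.52, 1.62, 4.03 and 1.82 FPKM. Cbr3, a carbonyl reductase, had 18.1, 8.65, 15.0 and 11.2 FPKM. Aldh1a1, an aldehyde dehydrogenase that also stands in the club cell list, had 696, 398, 641 and 403 FPKM. All 3 were lower in both libraries with amiodarone. The median of the 26 genes was -0.27 for amiodarone against vehicle and -0.10 for amiodarone + dabigatran against dabigatran.

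The partners of the regulators, such as the small MAF proteins and the subunits of the KEAP1 ubiquitin ligase, had no gene of 12 at 1.5-fold in any of the 4 comparisons. Of all genes at most 4.34% were, in either direction of any comparison, so a count of 0 in a list this short says nothing about the list. Of 22 other peroxidases and thiol enzymes, 4 were higher (18.2%) and 8 lower (36.4%) with amiodarone than with vehicle beyond counting error, close to the 19.6% and 30.1% of all genes. Msrb1, which repairs oxidized methionine, had 85.2, 156, 78.3 and 144 FPKM and was higher in both libraries with amiodarone. Sesn2, a stress-induced sestrin, had 4.54, 7.70, 5.60 and 7.18 FPKM. Among 14 genes of glutathione turnover, 6 were higher (42.9%, against 19.6%) and 3 lower (21.4%, against 30.1%) in the same comparison, and none was at 1.5-fold, near what the 4.34% and 3.93% of all genes would give.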

How the data were processed

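Poly(A) RNA from mouse lung was sequenced in 4 libraries, each from 1 treatment: vehicle, amiodarone, dabigatran and the drugs combined. The authors mapped DNBseq reads to GRCm38.p6 with HISAT and to reference genes with Bowtie2, and estimated expression with RSEM; a filter on the genes of the deposited table is not given in the sources used here. The study left genes of low expression with vehicle out of its own gene set analysis, but the deposited table holds such genes. The authors deposited, for 17780 genes, an estimated count of reads and a normalized value on a linear scale. The deposited value is read as FPKM, which the sources used here do not state. Over 9866 genes with many reads, reads per unit of value differed between amiodarone and vehicle by a factor of 1.07. That is the ratio of the total reads. Transcript length cancels in this check, so it bears on library depth and not on the correction for length. Another 8 columns hold means of 2 libraries and were not used.

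Libraries were assigned to groups by their labels. The 4 comparisons were made on log2(FPKM + 1) over genes that reached 1 FPKM in either of the libraries compared, with a threshold of 1.5-fold. Intervals (95%) are exact Clopper-Pearson intervals on the estimated reads, rounded to whole numbers and rescaled to FPKM. They cover counting error only, and reads are not independent molecules. A count of 0 allows 3 reads, which is 1.71e-05% of the vehicle library. No test across animals was possible. The calculation was tested on simulated data. Coordinates and promoters are those of RefSeq for GRCm38.p6, in which 17669 gene identifiers were found.

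The 37 members, their 9 role groups, the 7 pathway lists and the 14 marker lists were chosen with earlier results of these data known. Every member is named. From a pathway list, at most 3 genes in each direction are named, those with the largest difference of at least 1.5-fold between amiodarone and vehicle. Alternatives were a pseudocount of 0.1, a minimum of 5 FPKM or none, thresholds of 2-fold and 1.2-fold, rescaling by the median ratio over 12728 genes, and reads scaled to library totals. Shares of reads without Scgb1a1, scalings of single members for dabigatran against vehicle and for amiodarone + dabigatran against dabigatran, and the motif TGAGTCAGC were added after seeing the data. Python 3.11.15, numpy 2.4.6, pandas 2.3.3, scipy 1.17.1 and matplotlib 3.10.9 were used.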

Additional observations from a re-analysis of the deposited data

Results flagged for a closer look

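The ratio with amiodarone pointed in opposite directions without and with dabigatran in 6 of the 36 genes, each beyond counting error, or 16.7% against 4.09% of all genes. These shares are not alike in read depth, as the members had a median of 2886 reads against 541 over all genes. For each gene the first value is amiodarone against vehicle and the second amiodarone + dabigatran against dabigatran, which share no library. Srxn1, sulfiredoxin, had ratios of 0.777 (0.696 to 0.868) and 1.19 (1.07 to 1.32). Sod1, cytosolic superoxide dismutase, had ratios of 0.858 (0.824 to 0.893) and 1.102 (1.06 to 1.15). Pgd, a pentose phosphate enzyme, had ratios of 0.901 (0.854 to 0.9501) and 1.102 (1.05 to 1.16). Tkt, transketolase, had ratios of 0.949 (0.905 to 0.995) and 1.08 (1.04 to 1.13). Gstp1, a glutathione S-transferase, had ratios of 0.877 (0.840 to 0.915) and 1.07 (1.03 to 1.12). Gstm1, a glutathione S-transferase, had ratios of 0.917 (0.896 to 0.938) and 1.02 (1.001 to 1.05). All 6 were lower in the first comparison and higher in the second. Whether the differences between the comparisons exceed the spread between animals was not tested, because each treatment has 1 library. After rescaling by the median ratio, Tkt lay within counting error in the first comparison. The estimated reads of Gstm1 and Gstp1 were not whole numbers, and their intervals leave out the error of dividing reads among copies.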

How the results depend on the processing

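Each group has 1 library, so leaving out a replicate was not possible. No paired analysis was possible because each group has 1 library and the comparisons come from no test. At 2-fold on the log2(FPKM + 1) scale, 0 members were lower for amiodarone against vehicle (3 at 1.5-fold). The count was 0 for amiodarone + dabigatran against dabigatran (1 at 1.5-fold). Nqo1 was past 2-fold by its ratio of FPKM to vehicle, 0.488 with amiodarone. Its difference on the log2(FPKM + 1) scale, -0.85, was not. At 1.2-fold, 5 were higher and 12 lower for amiodarone against vehicle (11.7% and 19.1% of all genes), 1 and 2 for dabigatran against vehicle (5.04% and 5.52%), 5 and 1 for amiodarone + dabigatran against amiodarone (9.39% and 5.93%), and 8 and 5 for amiodarone + dabigatran against dabigatran (10.7% and 12.5%). A pseudocount of 0.1, rescaling by the median ratio and reads scaled to library totals each gave 1 member (Gsr) in place of 0 at least 1.5-fold higher in the last comparison. With a gap of at least 1.2-fold between the pairs, 3 of 36 genes lay above and 5 below in both libraries with amiodarone. This was in place of 12 and 11, and of all genes 5.9% and 7.11% lay so with the gap. Without a gap, rescaling by the median ratio gave 15 above and 11 below (26.2% and 27.2% of all genes). Reads scaled to library totals gave 13 and 12 (21.7% and 31.9%). Without Scgb1a1, the share of the 37 genes was 1.36% (vehicle), 1.41% (amiodarone), 1.38% (dabigatran) and 1.57% (amiodarone + dabigatran) of reads. Rescaling moved amiodarone by 0.05 on the log2 scale against vehicle. It turned the direction of Prdx5 and Sod2 for amiodarone against vehicle, of Txn1 for dabigatran against vehicle, of Gclm, Gpx1, Gsr and Hmox1 for amiodarone + dabigatran against amiodarone, and of Keap1 for amiodarone + dabigatran against dabigatran, all within counting error as deposited. Of the 31 calls beyond counting error for amiodarone against vehicle 30 were kept, Tkt was lost, and Taldo1 was gained as higher. For amiodarone + dabigatran against amiodarone, Cat was lost from the 18 higher genes. Prdx6 and Bach1 were gained as lower there, which gave 4 lower genes in place of 2. Me1 was gained as lower for dabigatran against vehicle, and no call changed for amiodarone + dabigatran against dabigatran. No minimum on FPKM and a minimum of 5 FPKM changed no count by over 1.5 times.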

Other observations

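Of 11 genes that make oxidants and reached 1 FPKM, 8 were higher with amiodarone than with vehicle beyond counting error (72.7%, against 19.6% of all genes) and 1 was lower (9.09%, against 30.1%), with a median of 0.39 on the log2(FPKM + 1) scale. For amiodarone + dabigatran against dabigatran 9 of 12 were higher beyond counting error (75.0%, against 19.5%) and 2 lower (16.7%, against 23.5%), with a median of 0.65. At 1.5-fold 2 of 11 were higher in the first comparison (18.2%, against 4.34%) and 6 of 12 in the second (50%, against 3.25%). Xdh, xanthine dehydrogenase, which can pass electrons to oxygen, had 72.2, 195, 73.6 and 148 FPKM with vehicle, amiodarone, dabigatran and amiodarone + dabigatran. Cybb, the catalytic subunit of the phagocyte NADPH oxidase, had 12.9, 20.1, 10.9 and 23.8 FPKM. The sums of macrophage and of neutrophil markers were higher in the same libraries, though not every marker was, and their part was not tested.

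Of 14 genes of iron handling, 6 were higher (42.9%, against 19.6% of all genes) and 6 lower (42.9%, against 30.1%) with amiodarone than with vehicle beyond counting error. Lcn2, which binds iron-carrying siderophores, had 157, 921, 155 and 320.1 FPKM. The amiodarone + dabigatran library was thus between dabigatran and amiodarone for Lcn2, while both ferritin chains were highest in it. Hamp, the iron hormone hepcidin, had 61.0, 28.6, 45.2 and 21.1 FPKM, lower in both libraries with amiodarone.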
